A study of Sus scrofa with 4 samples.

Results

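The genes described here encode molecular chaperones and protein folding enzymes, taken by symbol from the porcine array's probe annotation. The rule took every gene whose symbol starts with DNAJ, HSPA, HSPB, HSPD, HSPE, HSPH, HSP90, PDIA or FKBP, or with CCT and a digit, and let the brightest probe that names a single gene stand for it. It found 80 of the 9962 genes with a value on all 4 arrays, measured by 113 probes. By the usual site of the protein, 37 members were cytosolic, 21 belonged to the endoplasmic reticulum (ER) and 7 to mitochondria. The other 15 were nuclear, vesicular or not assigned to a single site. The rule reads letters and not function, so that HSPBP1 and HSPBAP1, which are binding partners of HSP70 and of a small heat shock protein, were taken as well. No probe that names a single gene was for the inducible HSP70 gene HSPA1A, the ER member of the HSP90 family HSP90B1 or the ER cochaperone DNAJC3. Nor was any for the chaperonin subunit CCT5 or the mitochondrial genes HSPE1 and DNAJA3. Probes that name several genes were not used, and these genes were not measured here.

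Chaperones bind unfolded stretches of other proteins and keep them from clumping. The HSP70 proteins (HSPA genes) do so in cycles of ATP hydrolysis, which J proteins (DNAJ genes) start and nucleotide exchange factors such as the HSP110 proteins end, and they pass some clients on to HSP90 or to the ring-shaped chaperonin of CCT subunits, while small heat shock proteins (HSPB genes) hold clients without ATP. In the ER, the HSP70 protein HSPA5 (BiP) works with its own J proteins, protein disulfide isomerases (PDIA genes) and peptidyl-prolyl isomerases of the FKBP family, and HSPA5 is a classical target of the unfolded protein response, which saturated fatty acids are known to set off in many cell types. Mitochondria import unfolded proteins through a motor built on HSPA9 and fold them in the HSPD1 chaperonin.

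RNA came from pig granulosa cell (GC) monolayers, grown for 7 days from cells of 3 to 6 mm follicles and then cocultured with cumulus-oocyte complexes (COCs) through the 22 h and the following 22 h of *in vitro* maturation (IVM). The NEFA group received palmitic, stearic and oleic acid, and the control group received the same medium with the same albumin and ethanol and no fatty acid. Both groups had the same hormones, follicular fluid and COCs, which were removed before lysis, and strain, age and genotype of the slaughterhouse pigs were not given. Each of the 4 biological replicates was a pool of 4 wells from an IVM of its own, and its NEFA and control RNA shared 1 of the arrays A, B, C and D (replicates 1 to 4), labelled with different dyes. In such bulk RNA, fewer cells of a type and less RNA per cell cannot be told apart.

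Values are log2 ratios of NEFA over control, so that a value below 0 means less signal with NEFAs. The direction was not tested and is not certain. It follows the channel fields of the sample records, which put NEFA RNA in Cy3 on arrays A and B and in Cy5 on arrays C and D, whereas the sample titles state the opposite on every array, and by the titles every sign given here turns. Arrays A and B have the same dye orientation, yet their NEFA over control ratios had r = -0.75 over the 9962 genes. On this scale array B also ran against arrays C (r = -0.38) and D (-0.26), while array A had 0.35 and 0.27 with them and arrays C and D had 0.45. On the scale of red over green, before the orientation enters, array A ran against the others over all expression probes (r of -0.74, -0.32 and -0.30 with B, C and D), and arrays B, C and D had r of 0.33 to 0.47 with each other. The local background of array A was brighter in green (117) than in red (63.1), against 60.9 to 75.0 in green and 116 to 173 in red on the others, and its red over green ratios of 58 control probes had r of -0.99 to -0.97 with the other arrays. No label states that its columns are exchanged. Calls, group values and the means of most named members are therefore given with the columns as headed and again with the channels of array A exchanged, which turns the sign of its ratio. An array ratio or a 4-array mean given without a reading is as headed. Under the exchange arrays A and B run together over all genes, and both against arrays C and D. The signal of the median probe was 2.79 to 8.87 times that of the glass around it, depending on array and dye, and with 4 arrays the precision of each value is limited.

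Most members were expressed at measurable levels. For each array and dye, a threshold was set 2 SD above the average of the 153 negative controls, and probes over it were taken as above background. In both RNAs of all 4 arrays 45 members did so, 21 in some and 14 in none, among them the small heat shock genes HSPB2, HSPB3, HSPB6, HSPB8 and HSPB9. On all 4 arrays of at least 1 RNA, 50 members were above background as headed and 48 under the exchange.

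With the columns as headed, 0 members were higher and 1 was lower with NEFAs at the criterion of the study, an unadjusted p under 0.05 from limma and at least a 1.2-fold change. The lower member was the ER gene DNAJC16, and 2 members had an unadjusted p under 0.05, beside 142 of the 9962 genes. Over all 9962 genes, 0.281% were higher and 0.522% lower, and among the 2913 genes above background 0.343% and 0.893%. With the channels of array A exchanged, 1 member was higher, the small heat shock gene HSPB1, and 8 were lower, namely DNAJC10, DNAJC12, DNAJC15, DNAJC18, DNAJC21, FKBP3, FKBP7 and HSPA4. The background was then 1.08% higher and 3.08% lower over all genes, and 2.33% and 9.67% among the 2876 genes above background. All 9 of these members were above background. DNAJC21 was so on 3 arrays in NEFA and on 4 in control RNA, and the others on all 4 arrays in both RNAs. All 9 still passed with a term for dye in the fit, where 299 of all genes were higher and 370 lower. Of the 9, DNAJC12 and HSPB1 still passed when the pairing on an array was dropped, and these 2 with DNAJC21 and FKBP7 when no normalization was made between arrays. An unadjusted p under 0.05 from limma was found for 12 members under the exchange, beside 584 of the 9962 genes. All 12 were above background, where 467 of the 2876 genes had it. Among the 12, DNAJC9, HSPA2 and HSPA14 changed by less than 1.2-fold. By the sample titles the numbers higher and lower change places, in both readings. No member passed Benjamini-Hochberg adjustment over all probes in limma, where the smallest adjusted p of a member was 1.00 as headed and 0.635 under the exchange.

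**Figure D1:**
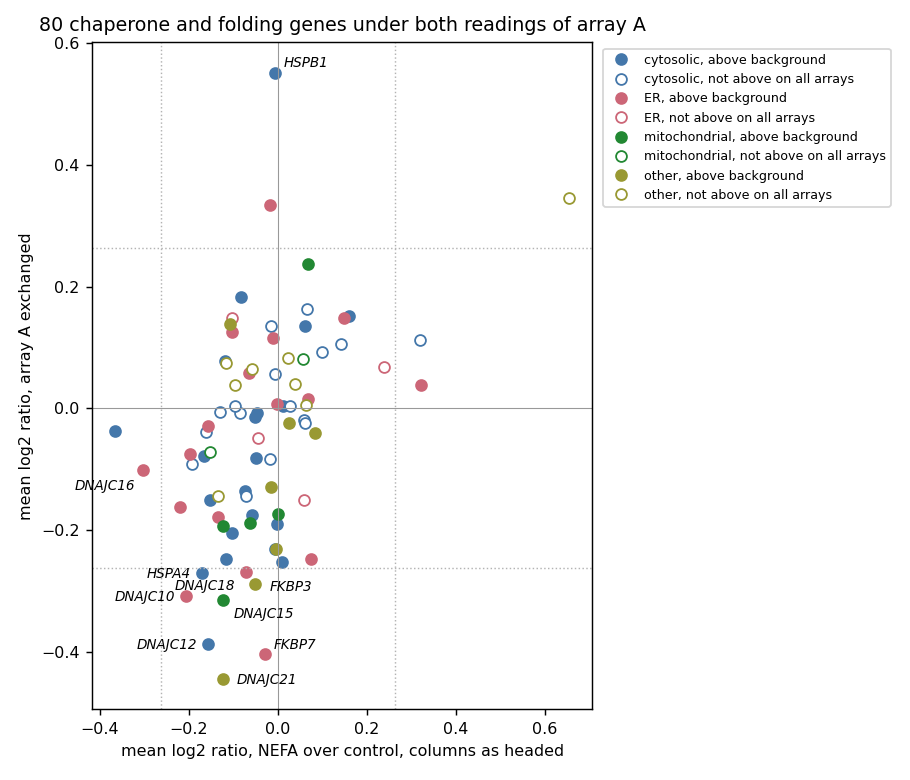
Mean log2 ratio of NEFA over control for the 80 members with the columns as headed (horizontal axis) and with the channels of array A exchanged (vertical axis). Colours give the compartment, filled points are above background, dotted lines mark a 1.2-fold change, and the members passing the criterion in either reading are named. HSPB1 lies at 0.55 on the vertical axis and near 0 on the horizontal one, and the 8 members lower under the exchange lie between -0.44 and -0.27.

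The ratios of arrays B, C and D are the same in both readings of array A, although all 4 arrays were normalized together. Fitted on these 3 arrays alone, 4 members were lower and 0 were higher, against 2.39% lower and 0.733% higher over all genes. The 4 were DNAJC10, DNAJC15, DNAJC21 and FKBP7, each of which also passed under the exchange, a fit that holds the same 3 arrays. All 4 were above background, and the share among genes above background was not computed for this fit. With all 4 arrays under the exchange it was 9.67% lower, against 3.08% over all genes. NEFA RNA was in Cy3 on array B and in Cy5 on arrays C and D, so that dye and treatment are not balanced in this fit. The log2 ratios from this fit were -0.34 for DNAJC10 (unadjusted p = 0.0164 from limma), -0.29 for DNAJC15 (0.0277), -0.38 for DNAJC21 (0.0172) and -0.29 for FKBP7 (0.0455). On array A as headed, each of the 4 had a ratio above 0.

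Without array B in place of array A, the columns as headed gave 4 members higher and 10 lower, against 7.30% higher and 7.44% lower over all genes (727 and 741 of 9962). They were CCT7, DNAJB1, DNAJB5, DNAJB12, DNAJC4, DNAJC8, DNAJC16, FKBP2, FKBP10, FKBP11, FKBP15, HSPB2, PDIA2 and PDIA5, so that DNAJC16 alone also passed with all 4 arrays as headed. Should array A have exchanged columns, this fit sets red over green on each of its 3 arrays, and dye and treatment cannot be told apart in it.

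As headed, 6 members (7.5%) had the same sign on all 4 arrays, beside 7.68% of all genes. Of the 50 members above background 3 (6.0%) did, beside 4.53% of genes above background. Under the exchange 21 members (26.2%) did, beside 13.0% of all genes. Of the 48 members then above background 18 (37.5%) did, beside 23.7% of genes above background. No test was made of these shares. In the 48 members above background in both readings, the ratios of arrays A and B had r = -0.87 as headed, while array A had 0.09 and -0.04 with arrays C and D, array B had -0.12 and 0.01 with them, and arrays C and D had r = 0.27. These correlations are over members, which share the same arrays.

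**Figure D2:**
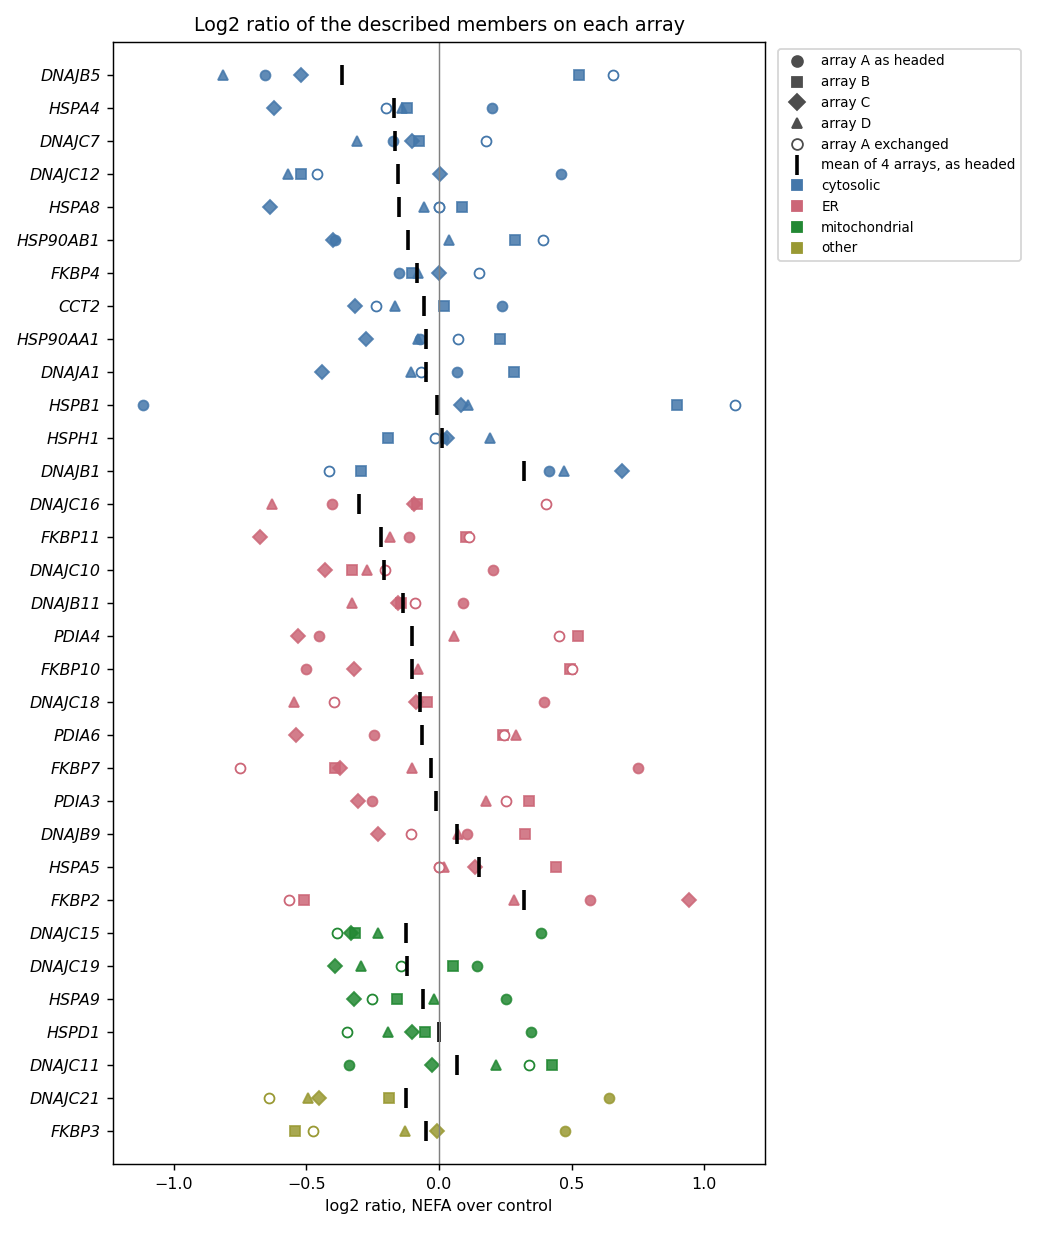
Log2 ratio of NEFA over control on each array for 33 members described in the text, by compartment. Filled symbols are arrays A to D as headed, open circles are array A exchanged, and black bars are the mean of the 4 arrays as headed. HSPB1 spans -1.12 on array A to 0.90 on array B, whereas DNAJC15 lies between -0.33 and -0.23 on arrays B, C and D and at 0.38 on array A.

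Among the cytosolic members, the general HSP70 and HSP90 proteins did not pass in either reading. HSPA8, the constitutive HSP70, had log2 ratios of 0.00, 0.09, -0.64 and -0.06 on arrays A to D. Array C was low and the others lay near 0, and the mean was -0.15 (standard error 0.14, unadjusted p = 0.306 from limma). The 0.00 on array A arises because the probe took the same rank in both channels, for which quantile normalization gives equal values. HSP90AA1, the inducible cytosolic HSP90, had -0.07, 0.23, -0.28 and -0.08, and HSP90AB1, the constitutive form, had -0.39, 0.28, -0.40 and 0.04. Their means were -0.05 and -0.12 as headed, and -0.01 and 0.08 under the exchange, so that the sign of HSP90AB1 depends on array A. HSPH1, an HSP110 protein that exchanges the nucleotide of HSP70, had a mean of 0.01 as headed (standard error 0.09).

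HSPA4, the other HSP110 protein measured above background, had ratios of 0.20, -0.12, -0.62 and -0.14. It was lower on arrays B, C and D and higher on array A as headed, with a mean of -0.17 (standard error 0.14, unadjusted p = 0.262 from limma). Under the exchange all 4 ratios were below 0 and the mean was -0.27, a 1.21-fold fall (standard error 0.11, unadjusted p = 0.0468 from limma). That call was lost without any 1 of the 4 arrays, and without array C the value was -0.15. It was -0.014 without normalization between arrays and -0.072 with the mean of its probes. A second probe of HSPA4 was not above background. HSPA2 and HSPA14, further cytosolic HSP70 proteins, had -0.23 (unadjusted p = 0.0396 from limma) and -0.25 (0.0419) under the exchange and -0.01 and 0.01 as headed, all under 1.2-fold.

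HSPB1 (HSP27), a small heat shock protein that holds unfolded clients, varied more between arrays as headed than any other member described. Its log2 level was 11.37 in control and 10.26 in NEFA RNA on array A as headed, 10.02 and 10.92 on array B, 10.47 and 10.56 on array C, and 10.15 and 10.26 on array D. The ratios were thus -1.12, 0.90, 0.08 and 0.11, far below 0 on array A, far above it on array B and close to it on the other 2. As headed the mean was -0.01 (standard error 0.30, unadjusted p = 0.984 from limma), and under the exchange it was 0.55, a 1.47-fold rise (standard error 0.20, unadjusted p = 0.0309 from limma). That rise was lost without replicate 1 (0.36, unadjusted p = 0.104 from limma) and without replicate 2 (0.44, 0.109). Under the exchange the ratios were 1.12 and 0.90 on arrays A and B, with NEFA in Cy3, and 0.08 and 0.11 on arrays C and D, with NEFA in Cy5. The rise thus lay mostly on the arrays with NEFA in Cy3. A term for dye takes up that gap, and with it the mean was again 0.55 (standard error 0.07, unadjusted p = 6.7e-05 from limma). No adjusted p is given for that fit.

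The J proteins of the cytosol gave 1 call, under the exchange. DNAJB1, the main J partner of HSP70 in the heat shock response, had ratios of 0.42, -0.29, 0.69 and 0.47, with a mean of 0.32 as headed (standard error 0.17, unadjusted p = 0.0992 from limma) and 0.11 under the exchange. It was above background on 3 of 4 arrays in each RNA. DNAJB5, another HSP40 protein, had the opposite pattern, -0.65, 0.53, -0.52 and -0.81, with a mean of -0.36 as headed (standard error 0.22) and -0.04 under the exchange. In both genes array B ran against arrays C and D. DNAJC7, a cochaperone that binds both HSP70 and HSP90, was below 0 on every array as headed, from -0.31 to -0.08, with a mean of -0.17 (standard error 0.08, unadjusted p = 0.0857 from limma). Under the exchange its array A had 0.18 and its mean was -0.08 (unadjusted p = 0.460 from limma). DNAJC12, a J protein known in humans as a partner of the aromatic amino acid hydroxylases, had 0.46, -0.52, 0.00 and -0.57. Its mean was -0.16 as headed, and under the exchange -0.39, a 1.31-fold fall (standard error 0.12, unadjusted p = 0.0151 from limma), which was lost without replicate 1 (-0.36, unadjusted p = 0.0520), 2 (-0.34, 0.0599) or 4 (-0.33, 0.0622). DNAJA1, an HSP40 protein, had a mean of -0.05 as headed and -0.08 under the exchange.

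The chaperonin subunits CCT2, CCT3, CCT4 and CCT7 all had means between -0.08 and -0.05 as headed, and none passed in either reading. With array A exchanged these means were -0.18, -0.01, -0.14 and 0.18, in that order. CCT2 had ratios of 0.24, 0.02, -0.32 and -0.17. Of the FKBP cochaperones that HSP90 brings to steroid receptors, FKBP4 had a mean of -0.08 as headed (standard error 0.08) and -0.01 under the exchange. It was above background on 3 arrays in each RNA. FKBP5 was above background only in NEFA RNA on 1 array, so no change is given for it.

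In the ER, the central chaperone HSPA5 had the same mean in both readings. Its log2 level was 10.05 in both RNAs on array A, 10.43 in control and 10.87 in NEFA RNA on array B, 10.50 and 10.63 on array C, and 11.14 and 11.16 on array D. No array showed less HSPA5 with NEFAs, and array B carried most of the difference. The mean log2 ratio was 0.15, a 1.11-fold difference (standard error 0.10, unadjusted p = 0.191 from limma as headed and 0.188 under the exchange), which missed the criterion. Its J proteins DNAJB9 (ERdj4) and DNAJB11 (ERdj3), which bring it unfolded clients, had means of 0.07 and -0.13 as headed and 0.02 and -0.18 under the exchange. DNAJB11 lay below 0 on arrays B, C and D, from -0.33 to -0.14.

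DNAJC10 (ERdj5), a J protein that also reduces disulfide bonds of misfolded proteins, had log2 levels of 11.53 in control and 11.20 in NEFA RNA on array B, 11.21 and 10.78 on array C, and 12.32 and 12.05 on array D. On array A as headed control had 11.27 and NEFA 11.47. The ratios were 0.20, -0.33, -0.43 and -0.27, and the mean was -0.21 as headed (standard error 0.12, unadjusted p = 0.140 from limma). Under the exchange the mean was -0.31, a 1.24-fold fall (standard error 0.08, unadjusted p = 0.00739 from limma, adjusted p = 0.654), and it passed without each array in turn. Without normalization between arrays it was -0.19, under 1.2-fold.

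DNAJC16, a J protein of the ER membrane, was the member lower as headed. Its ratios were -0.40, -0.08, -0.10 and -0.63, all below 0 and close to 0 on arrays B and C. The mean was -0.30, a 1.23-fold fall (standard error 0.12, unadjusted p = 0.0398 from limma). Its signal was near background, above it on 2 arrays in NEFA and on 4 in control RNA, and the call was lost under the exchange (-0.10, unadjusted p = 0.558 from limma), without replicate 1 (-0.27, 0.117) and without replicate 4 (-0.19, 0.155). Without background correction its value was -0.04. DNAJC18, another J protein of the ER membrane, had 0.40, -0.05, -0.09 and -0.55. Its mean was -0.07 as headed and -0.27 under the exchange (standard error 0.11, unadjusted p = 0.0497 from limma), a call lost without replicate 1 (-0.23) or 4 (-0.18) and with the mean of its probes (-0.14).

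**Figure D3:**
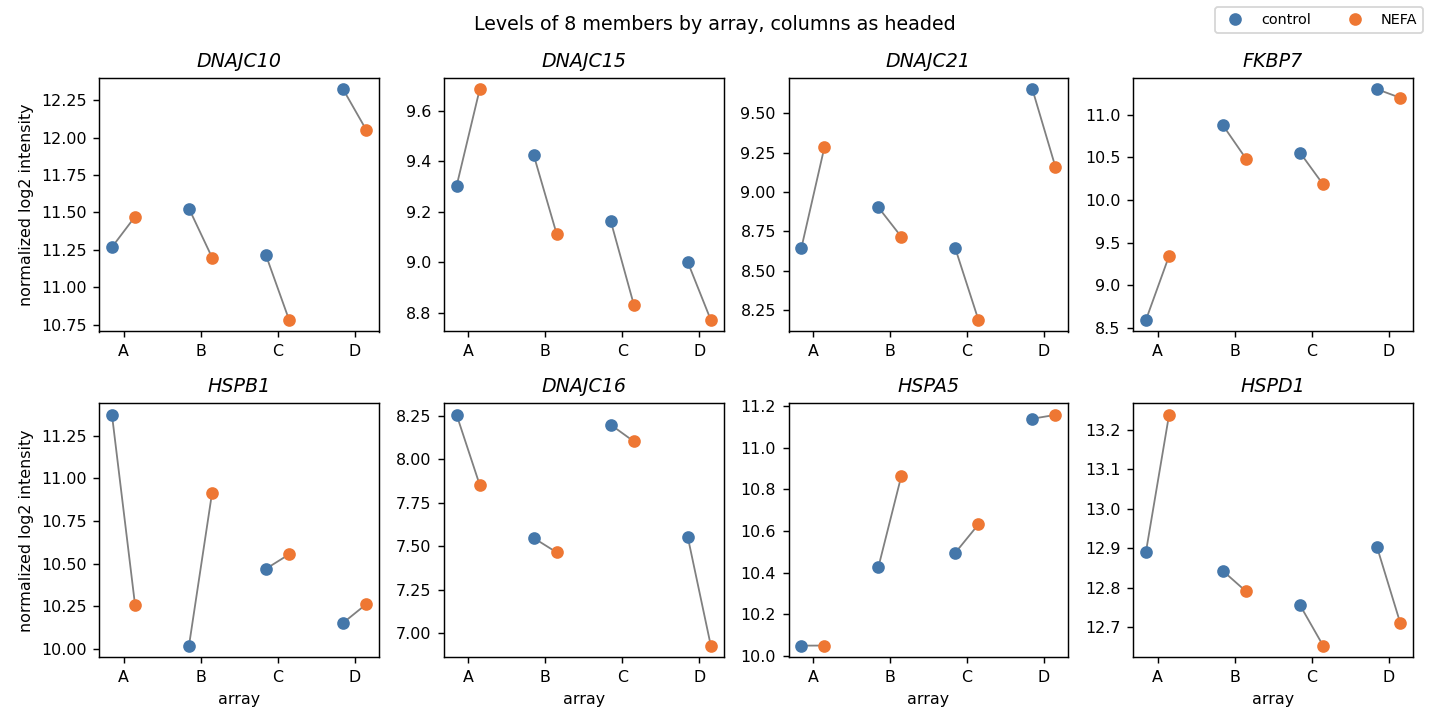
Normalized log2 intensity of 8 members in control (blue) and NEFA (orange) RNA on each array as headed, each with its own vertical axis; lines join the 2 RNAs of 1 array. DNAJC10, DNAJC15, DNAJC21 and FKBP7 are lower with NEFAs on arrays B, C and D and higher on array A, and HSPB1 turns between arrays A and B.

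Of the FKBP isomerases of the ER, FKBP7 passed, under the exchange, and the others did not. FKBP7 had ratios of 0.75, -0.39, -0.37 and -0.10, so that array A was far above the others as headed, where the mean was -0.03 (standard error 0.20). Under the exchange the mean was -0.40, a 1.32-fold fall (standard error 0.12, unadjusted p = 0.0129 from limma), and it passed without each array in turn. FKBP2 (FKBP13) had 0.57, -0.51, 0.94 and 0.28, with array B against the other 3 and a mean of 0.32 as headed (standard error 0.23, unadjusted p = 0.203 from limma), and 0.04 under the exchange. FKBP11 had -0.11, 0.10, -0.68 and -0.19 and a mean of -0.22 as headed, which array C set for the most part, and -0.16 under the exchange. FKBP10, which acts on collagen, had -0.50, 0.49, -0.32 and -0.08 and a mean of -0.10 as headed and 0.15 under the exchange.

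The disulfide isomerases PDIA3, PDIA4 and PDIA6 gave small means with opposite signs between arrays. PDIA3 (ERp57), which serves glycoproteins held by calnexin and calreticulin, had -0.25, 0.34, -0.31 and 0.18. PDIA4 (ERp72) had -0.45, 0.52, -0.53 and 0.06. PDIA6 had -0.24, 0.24, -0.54 and 0.29. In all 3 genes arrays B and D lay above 0 and arrays A and C below it as headed. Their means were -0.01, -0.10 and -0.06 as headed and 0.12, 0.12 and 0.06 under the exchange, within standard errors of 0.12 to 0.19. PDIA2 had an unadjusted p under 0.05 as headed, but its probe was below background on every array and no change is given for it.

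Of the 7 mitochondrial members, 0 passed as headed and 1 was lower under the exchange. DNAJC15, an inner membrane J protein that takes part in import and in mouse and human cells restrains respiratory complex I, had log2 levels of 9.43 in control and 9.11 in NEFA RNA on array B, 9.16 and 8.83 on array C, and 9.00 and 8.77 on array D. On array A as headed control had 9.30 and NEFA 9.69. The 3 ratios of arrays B, C and D lay within -0.33 to -0.23 and that of array A was 0.38. The mean was -0.12 as headed (standard error 0.14, unadjusted p = 0.408 from limma) and -0.32 under the exchange, a 1.24-fold fall (standard error 0.07, unadjusted p = 0.00519 from limma, adjusted p = 0.648), which passed without each array in turn. With the mean of its 4 probes it was -0.15 (unadjusted p = 0.101 from limma), and the other 3 probes were above background on at most 1 array in each RNA. It was under 1.2-fold without background correction (-0.24) and without normalization between arrays (-0.25).

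HSPA9 (mortalin), the HSP70 of the matrix, had 0.25, -0.16, -0.32 and -0.02. HSPD1 (HSP60) had 0.35, -0.05, -0.10 and -0.19. Both were below 0 on arrays B, C and D and above 0 on array A as headed. Their means were -0.06 and 0.00 as headed and -0.19 (unadjusted p = 0.0664 from limma) and -0.17 (0.0844) under the exchange, and neither passed. DNAJC19, a J protein of the import motor, had 0.14, 0.05, -0.39 and -0.29 and a mean of -0.12 as headed and -0.19 under the exchange. DNAJC11, a J protein of the outer membrane that takes part in shaping cristae, had -0.34, 0.43, -0.03 and 0.21, with a mean of 0.07 as headed and 0.24 under the exchange (standard error 0.10, unadjusted p = 0.0520 from limma).

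Among the 15 members of other or unassigned sites, DNAJC21 and FKBP3 were lower under the exchange. DNAJC21, which takes part in maturation of the large ribosomal subunit, had log2 levels of 8.90 in control and 8.72 in NEFA RNA on array B, 8.64 and 8.19 on array C, and 9.65 and 9.16 on array D, while array A as headed had 8.64 in control and 9.28 in NEFA RNA. Its ratios were 0.64, -0.19, -0.45 and -0.49. The mean was -0.12 as headed (standard error 0.20) and -0.44 under the exchange, a 1.36-fold fall (standard error 0.10, unadjusted p = 0.00346 from limma, adjusted p = 0.635), and it passed without each array in turn. Without background correction it was -0.27 and still passed. Its signal was above background on 3 arrays in NEFA and on 4 in control RNA, so that only the control RNA brought it over the threshold on all arrays. FKBP3 (FKBP25), a nuclear isomerase, had 0.48, -0.54, -0.01 and -0.13. Its mean under the exchange was -0.29 (standard error 0.12, unadjusted p = 0.0448 from limma), a call that held without replicate 3 (-0.38) and was lost without replicate 1 (-0.23), 2 (-0.20) or 4 (-0.34) and without normalization between arrays (-0.16).

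Compared by compartment, the groups differed little as headed. The median log2 ratio was -0.05 for cytosolic, -0.04 for ER, -0.06 for mitochondrial and -0.01 for the other members, beside -0.02 for all genes and -0.05 for all genes above background. Of the 80 members 54 (67.5%) were below 0, beside 58.1% of all genes. Of the 50 members above background 38 (76.0%) were, beside 65.8% of genes above background, and both medians were -0.05. Under the exchange the medians were -0.02, -0.03, -0.17 and 0.01 in the same order, beside -0.01 and -0.05. Then 46 members (57.5%) were below 0, beside 54.0% of all genes. Of the 48 members above background 33 (68.75%) were, beside 60.1% of genes above background, with medians of -0.11 and -0.05. The mitochondrial median was 0.14, 0.03, -0.27 and -0.19 on arrays A to D as headed, the ER median 0.00, 0.10, -0.23 and -0.08, and the cytosolic median 0.02, 0.05, -0.14 and -0.05. On arrays C and D all 3 medians were below that of all genes (-0.06 and -0.04), and on array B they were above it (0.01). Genes above background as headed had medians of -0.03, -0.17 and -0.07 on arrays B, C and D. The members above background had 0.08, -0.21 and -0.08 (cytosolic), 0.15, -0.25 and -0.10 (ER) and -0.05, -0.32 and -0.19 (mitochondrial).

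The mitochondrial minus the cytosolic median was 0.13, -0.01, -0.13 and -0.14 on the 4 arrays as headed, with an SD of 0.12 that exceeds its mean of -0.04. Under the exchange it was below 0 on all 4 arrays, with a mean of -0.10 and an SD of 0.06. The ER minus the cytosolic median was above 0 on 1 array as headed and on 2 under the exchange, with means of -0.02 and -0.01 and an SD of 0.06 in both. The mitochondrial group holds 7 genes, so that single genes move its median, and members are not replicates, for which reason no test was made.

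**Figure D4:**
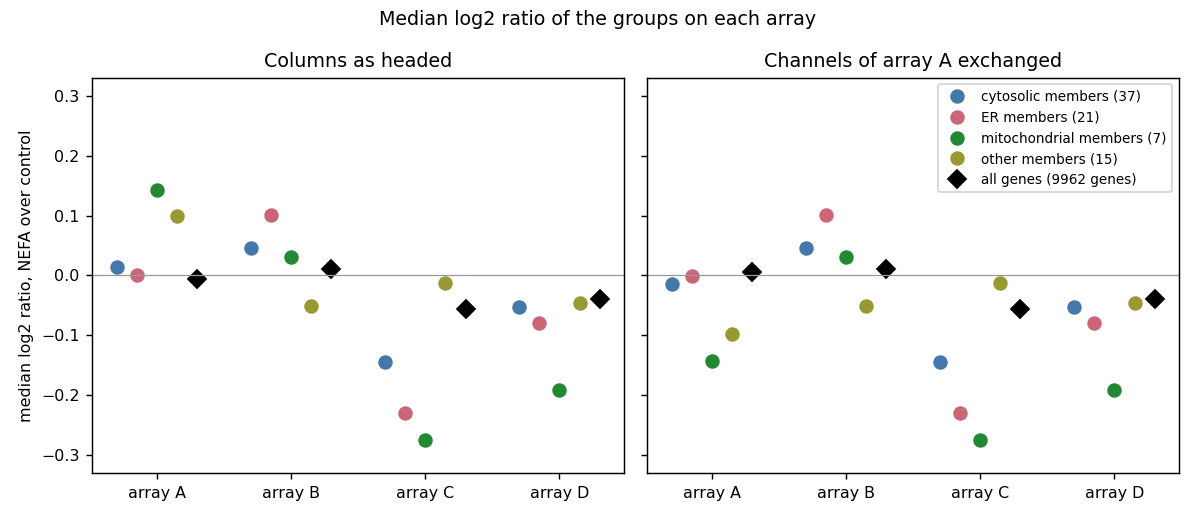
Median log2 ratio of NEFA over control on each array for the cytosolic, ER, mitochondrial and other members and for all genes (black diamonds), with the columns as headed (left) and with array A exchanged (right). The mitochondrial median is the lowest of the groups on arrays C and D in both panels, and on array A in the right panel.

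Of the 80 members, 21 had more than 1 probe naming that gene alone, and where several lay above background on most arrays they could be set side by side. A second FKBP7 probe had ratios of 0.00, -0.27, -0.44 and -0.43, with a mean of -0.29 as headed (unadjusted p = 0.0291 from limma) and -0.28 under the exchange (0.0298), so that it fell in both readings and arrays B, C and D had the sign of the brightest probe. It was above background on 3 arrays in each RNA. A second HSPD1 probe had 0.20, -0.22, -0.20 and -0.33, the same signs as the brightest, with a mean of -0.14 as headed and -0.24 under the exchange (unadjusted p = 0.0182 from limma, under 1.2-fold). The 3 FKBP11 probes were all lowest on array C. In FKBP2 and PDIA6 the probes opposed each other. The brightest FKBP2 probes shared their pattern, with 0.94 and 0.92 on array C, whereas the third had -0.02 there and 0.36 on array B, where the others had -0.51 and -0.39. For PDIA6 the second probe had 0.55, -0.58, 1.05 and 0.56, opposite to the brightest probe on arrays A, B and C, with a mean of 0.39 as headed (unadjusted p = 0.167 from limma) against -0.06. The values of these 2 genes therefore depend on the probe.

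**Figure D5:**
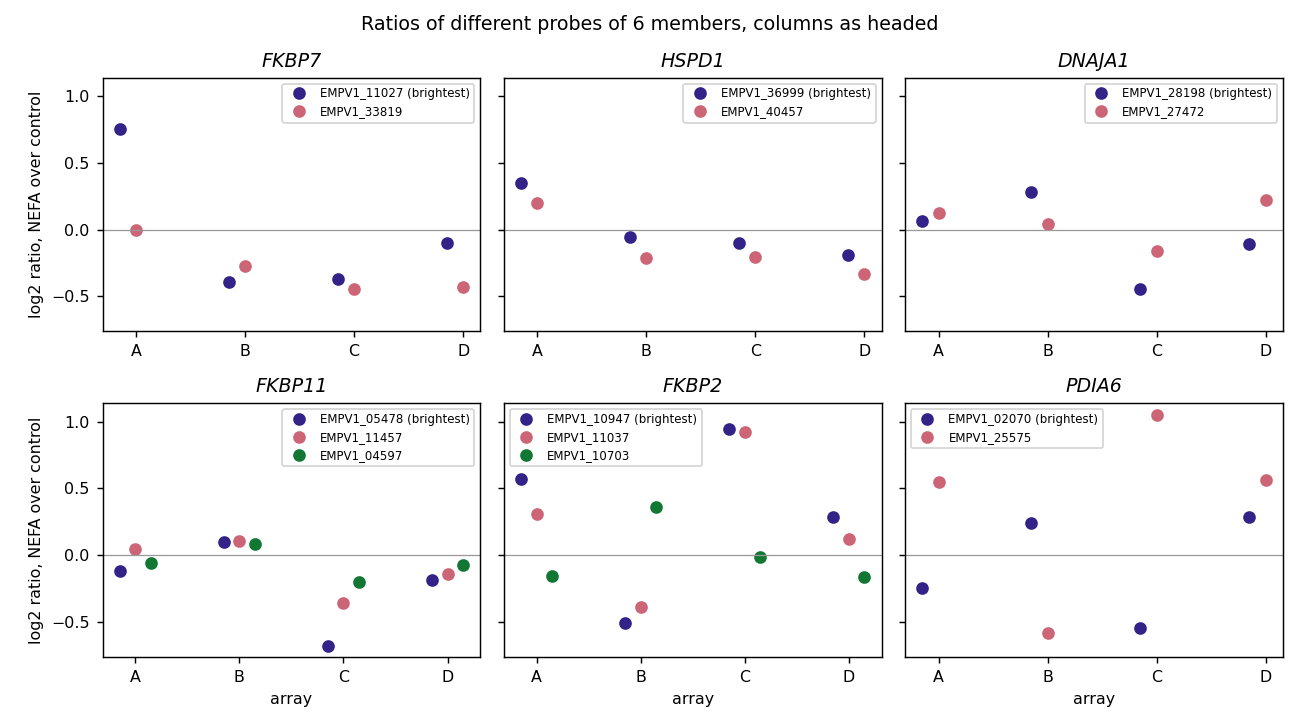
Log2 ratio of NEFA over control on each array as headed for the probes of 6 members that lay above background on at least 3 arrays. The probes of FKBP7 and HSPD1 are below 0 on arrays B, C and D, while those of FKBP2 and PDIA6 lie on opposite sides of 0 on arrays A and B.

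A list of 81 further folding factors outside the rule, such as prefoldin and tubulin cofactors, cyclophilins, nucleotide exchange factors, mitochondrial proteases and heat shock transcription factors, had 60 measured genes. As headed 1 was higher and 1 lower, beside 0.281% and 0.522% of all genes. TTC1, a tetratricopeptide protein that binds chaperones, rose by 0.27 (ratios 0.02, 0.28, 0.46 and 0.30, unadjusted p = 0.0316 from limma). CHORDC1, an HSP90 partner, fell by 0.29 (ratios -0.18, -0.16, -0.40 and -0.43, unadjusted p = 0.0153 from limma). TTC1 was above background on 2 arrays and CHORDC1 on 3 arrays in each RNA, and under the exchange neither passed (0.26, under 1.2-fold, and -0.20). UNC45A, a myosin chaperone, had 0.52 as headed (unadjusted p = 0.0907 from limma), from a ratio of -0.52 on array B and ratios of 0.70 to 1.14 on arrays A, C and D, and the mitochondrial protease CLPP was below background on every array.

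Under the exchange 1 of the 60 was higher and 3 were lower, genes named here after their values were seen, beside 1.08% and 3.08% of all genes and 2.33% and 9.67% of those above background. PPIG, a nuclear cyclophilin, had 0.52, the tubulin cofactor TBCA -0.34, GRPEL2, a nucleotide exchange factor of HSPA9, -0.33, and the transcription factor HSF2 -0.36. The median of the 60 genes was -0.05 as headed and -0.01 under the exchange.

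Marker genes were measured in part. Of 10 granulosa markers 3 had a probe that names a single gene, and AMH and NR5A1 were above background. Of the defining markers of other cells that had such a probe, the smooth muscle gene ACTA2, the oocyte gene GDF9 and the cumulus gene HAS2 were above background. The oocyte genes BMP15, ZP2 and ZP3, the cumulus gene PTX3 and the smooth muscle gene CNN1 were not above it on all arrays. Nor were the theca genes CYP17A1 and LHCGR, 3 immune genes and 2 endothelial genes. The summed log2 level of the 4 theca and smooth muscle markers was 15.15 to 15.23 in NEFA and 15.17 to 15.23 in control RNA. ACTA2 alone had 15.12 to 15.19 and 15.14 to 15.19, so that it made up most of this sum. The sum of the 3 granulosa markers was 12.45 to 14.07 and 11.62 to 13.50, and that of the 4 oocyte markers 10.26 to 10.58 and 10.27 to 10.46. For the 3 immune markers it was 9.48 to 9.64 in both, for the 2 endothelial markers 8.75 to 9.09 and 8.86 to 9.04, and for the 2 cumulus markers 9.30 to 9.86 and 9.37 to 9.91. Within arrays, the granulosa sum was 0.53, -0.53, 0.56 and 0.83 in NEFA minus control RNA on arrays A to D as headed. That of AMH alone was 0.56, -0.56, 0.59 and 0.97. Under the exchange AMH had -0.56, -0.56, 0.59 and 0.97, which is red above green on all 4 arrays. The oocyte sum differed by 0.32, -0.20, 0.13 and 0.10, and the other sums by -0.14 to 0.13. The smooth muscle gene CNN1 was the only marker to pass in either reading (0.34 under the exchange). The part of these cells in the values above was not tested.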

How the data were processed

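RNA of 4 replicates was compared on 4 two-colour arrays. The authors amplified and labelled the RNA and extracted the spots, and the intensity values they deposited are mean raw signals and local backgrounds without normalization. A deposited table of log ratios was not used, because its rows could not be matched to the spots. Of 45220 spots per array, 43794 expression probes had their background modelled by normexp with an offset of 50, where the methods name subtraction, and were then normalized by loess within and quantile between arrays, and tested in limma 3.58.1 (R 4.3.3) on the log2 ratio, two-sided, with a sign per array for its dye orientation and the NEFA and control RNA of 1 replicate paired on its array. P-values measure the spread of the 4 signed ratios, which limma moderates over all probes. Without a dye term, differences between replicates and between dyes are not separated in that spread. Benjamini-Hochberg adjustment ran over all probes. The authors also used limma. The annotation names 1 gene for 13146 probes and no gene or several genes for 30648, and 154 symbols were updated through RefSeq. The array build is not given in the sources used here, so that coordinates were left out.

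The rule for named genes took every member passing the criterion in either reading, the 3 members above background with the largest ratios in each of the cytosolic, ER and mitochondrial groups as headed, 25 principal chaperones whatever their values (19 measured), and the 4 folding factors with the smallest p. DNAJC9, HSPA2, HSPA14, PDIA2 and the further probes were named after their values were seen. The members and lists were chosen with earlier results of these data known. The procedure was tested on simulated data. Alternatives were other background corrections and normalizations, a dye term, probes above background only, separate channels, the mean of all probes, each replicate left out, and the exchange of array A.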

Additional observations from a re-analysis of the deposited data

Results flagged for a closer look

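With 4 values per gene, 1 array was taken to stand apart where its gap to the nearest other value divided by the whole range exceeded Dixon's critical value. This was asked of the log2 ratios of 38 genes in both readings, 76 groups of values, and 4 were marked. Chance marks about 1 in 20 groups.
DNAJC15 had a ratio of gap to range of 0.857 as headed, because array A (0.38) lay far above arrays B, C and D (-0.33 to -0.23). PDIA6 had 0.942, HSPA4 0.844 and FKBP5 0.874 under the exchange. In PDIA6 and HSPA4 the distant array was C, at -0.54 and -0.62, and in FKBP5, which was above background in 1 RNA of 1 array, it was D. The causes were not tested.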

How the results depend on the processing

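As headed, where 0 members were higher, the number was 1 with array A exchanged (3 with a dye term as well), 1 each with a dye term, with background subtracted and with a median within arrays, and 0 to 4 without each replicate in turn. Against 1 lower, it was 8 with array A exchanged, with or without a dye term, 0 with a dye term alone, with background subtracted, without background correction, without normalization between arrays, in probes above background only and with no replicate block, and 0 to 10 without each replicate. The 4 higher and 10 lower came from leaving out replicate 2, where all genes gave 727 and 741 against 28 and 52, and the other left-out replicates gave 0 higher and 0 to 4 lower. Under the exchange, against 1 higher, it was 3 with a dye term, 2 without normalization between arrays and 0 to 3 without each replicate. Against 8 lower, it was 3 without normalization between arrays, 5 in probes above background or with the mean of all probes, 1 with no replicate block and 4 to 8 without each replicate. The compartment medians, left-out replicates included, ranged within their SD over arrays, except the mitochondrial one under the exchange, which was -0.036 without normalization between arrays. Leaving out each replicate moved the headed medians from -0.08 to 0.02 (cytosolic), -0.13 to -0.02 (ER) and -0.15 to 0.02 (mitochondrial), and those under the exchange from -0.06 to 0.01, -0.08 to 0.01 and -0.20 to -0.13. HSPB1 turned from -0.01 to 0.55 with array A exchanged, with or without a dye term, and TTC1 from 0.27 to -0.017 without background correction. The numbers of replicates pair the RNAs by sharing an array. The alternatives under the exchange were chosen after seeing the data, and the alternative with the deposited log ratios was not run. Apart from the exchange itself and the left-out arrays, the causes were not tested. Signals near background, as for DNAJC16, limit what can be seen.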
